A study of Mus musculus with 18 samples.

Results

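The genes examined were 10 members of the BMP and activin branch of the TGF-beta superfamily, namely the ligands Bmp2, Bmp4, Bmp6 and Bmp10, the divergent ligand Gdf15, the activin subunit genes Inhba and Inhbb, and the follistatin genes Fst, Fstl1 and Fstl3. They were chosen by symbol, and all 10 were found among the 51435 genes of the deposited tables, of which 24804 were tested between genotypes. RNA-seq of poly(A)-selected left ventricle RNA was available for 18 male littermate mice on a C57BL/6J-based background, 9 of them WT and 9 WWP2Mut/Mut. WWP2Mut/Mut mice lack 4 bp of Wwp2 exon 2, removed with CRISPR/Cas9, which disrupts the full-length and N-terminal isoforms of the E3 ubiquitin ligase WWP2 and spares the C-terminal isoform. Every mouse of either genotype had received angiotensin II (AngII), a pressor hormone that drives hypertrophy and fibrosis of the heart, at 500 ng/kg/min for 28 days from 8 weeks of age. The comparison is therefore between genotypes under AngII, without untreated hearts, and the mutant was made to ask which disease processes depend on the N-terminal part of WWP2.

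BMPs and activins are secreted dimers that bind pairs of type I and type II serine/threonine kinase receptors. BMP receptors phosphorylate SMAD1, SMAD5 and SMAD8, activin receptors phosphorylate SMAD2 and SMAD3, and both sets of SMADs act with SMAD4 on target genes. Follistatins are secreted glycoproteins, of which FST and FSTL3 bind activins and keep them from their receptors. In the heart, BMPs pattern the valves and chambers, BMP10 is an atrial and trabecular ligand, GDF15 is released by stressed myocytes, and activin A and follistatins are studied for their part in fibrosis.

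Wwp2 itself was examined first. It lay between 3.83 and 6.01 TPM (a level scaled for transcript length and library size) in WT mice and between 1.19 and 3.00 TPM in WWP2Mut/Mut mice, with no overlap, in accordance with the genotype labels. Its log2 fold change (WWP2Mut/Mut over WT) was -1.40 (SE 0.16, FDR = 0.00113 by edgeR's quasi-likelihood test, adjusted after Benjamini and Hochberg), and it was the 1 gene of 24804 past an FDR of 0.05. Without the 5 mice described next, it was -1.26 with an edgeR FDR of 0.205, no gene was called by edgeR, and 511 of 24087 genes stood at an unadjusted p below 0.05. The libraries held 24566994 to 37451087 counts, and each of the 4 lanes held 2 or 3 mice of each genotype. Summed cardiomyocyte markers (7 genes) lay between 37384 and 49981 TPM in all mice, led by the ventricular light chain gene Myl2. Atrial markers (Sln, Myl7, Myl4, Mybphl and Kcnj3 summed) exceeded 100 TPM in 5 mice (WT mice 43-3, 45-1 and 84-2, WWP2Mut/Mut mice 22-3 and 8-2), with 106 to 656 TPM against 7.07 to 22.4 TPM in the other 13. Results that rest on these 5 mice are given below with and without them, apart from most relations with summed marker lists. This was a choice made after seeing the data. Liver markers (7 genes) spanned 4.4 to 311 TPM in WT and 4.68 to 57.0 TPM in WWP2Mut/Mut mice, and 7 of 7 were lower in WWP2Mut/Mut mice at an unadjusted p below 0.05.

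Levels of the 10 genes spanned more than 3 orders of magnitude in the infused ventricle. Fstl1, a secreted glycoprotein named for its follistatin domain, was the most abundant, at 24.9 TPM ± 6.69 (SD, n = 18). Bmp6, known for inducing hepcidin in the liver, followed at 4.82 TPM ± 1.26, and the activin antagonist Fstl3 at 3.41 TPM ± 0.870. Next came Bmp4, a developmental BMP and the closest relative of Bmp2, at 2.77 TPM ± 0.608, and Gdf15 at 1.17 TPM ± 0.603. The remaining 5 genes lay below 1 TPM on average. Inhbb, which encodes the beta B subunit of activins and inhibins, averaged 0.502 TPM ± 0.226, Bmp2 0.290 TPM ± 0.156, Inhba, which encodes the beta A subunit, 0.219 TPM ± 0.120, and Fst 0.118 TPM ± 0.0678. Bmp10 was close to undetected. Each gene differed from its neighbour in this order within mice (sign-flip permutation test on log2(TPM + 1), 100000 resamples, two-sided, adjusted over 9 neighbouring pairs, n = 18). The weakest of these differences was between Fstl3 and Bmp4, in which Fstl3 was the higher in 14 of 18 mice (adjusted p = 0.0107, permutation test). Thus Fstl1 and Fstl3 stood well above either activin subunit gene.

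**Figure D1:**
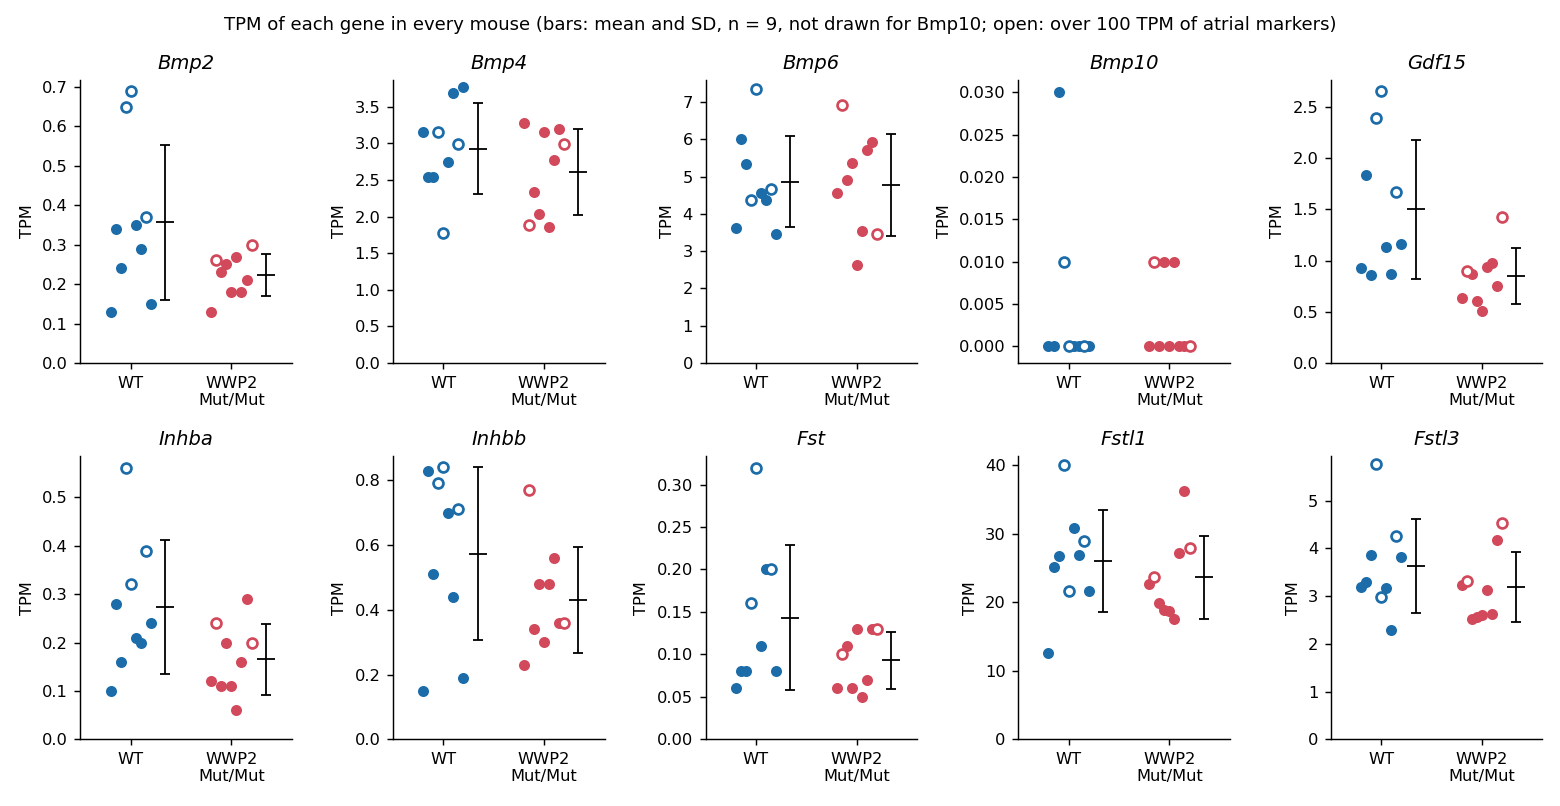
TPM of the 10 genes in every mouse, WT in blue and WWP2Mut/Mut in red, with mean and SD beside the points (n = 9 per genotype; no mean is drawn for Bmp10); open circles are the 5 mice with over 100 TPM of summed atrial markers. In the Gdf15 panel 4 of 9 WT points lie above all WWP2Mut/Mut points, and the genotypes overlap in every panel.

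None of the 10 genes passed an FDR of 0.05 between genotypes in edgeR, DESeq2 or limma. In edgeR 0.00403% of all genes tested did. At an unadjusted p below 0.05 stood 2 of 10, Inhba and Gdf15, beside 3.66% of all genes. Both were lower in WWP2Mut/Mut mice, where 2.57% of all genes were lower at that p. Negative log2 fold changes were found for 8 of 10, beside 51.9% of all genes, and their median was -0.09 against -0.01 over all genes. The other 8 genes had unadjusted p values of 0.252 to 0.956. By mean TPM, 10 of 10 genes were lower in WWP2Mut/Mut mice. Limma on log2(TPM + 1) gave a median of -0.14 over all genes with a mean TPM of at least 1. The genotype differences in TPM given below were not corrected for this shift. In a simulation of this design, the same fit recovered 17.9% of genes changed 1.5-fold, 59.7% of those changed 2-fold and 95.5% of those changed 3-fold, so that smaller differences were mostly not detectable. Only genes of intermediate mean count were changed in the simulation, a range that leaves out Bmp10, Fst and Fstl1. Its means held no lane, RNA concentration or tissue effect. In bulk tissue, fewer cells of a type cannot be told apart from less RNA per cell.

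**Figure D2:**
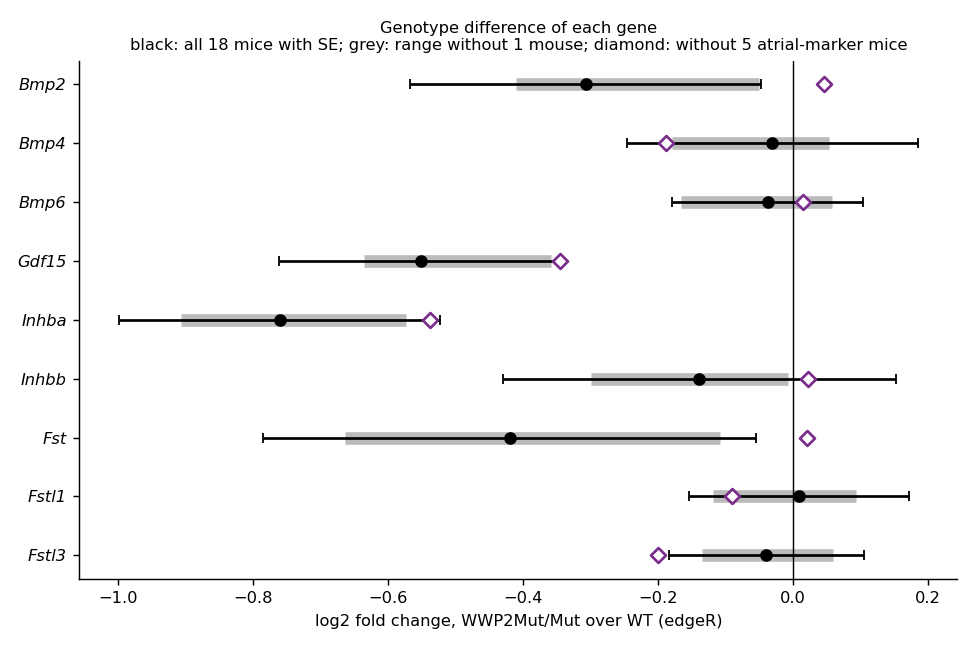
Log2 fold change (WWP2Mut/Mut over WT) of 9 genes from edgeR: black points with SE for all 18 mice, grey bars for the range when each mouse was left out in turn, and diamonds for the fit without the 5 mice with over 100 TPM of atrial markers. Inhba at -0.76 and Gdf15 at -0.55 stay left of 0 in all of these fits, and the diamonds of Bmp2, Bmp6, Inhbb and Fst lie just right of it. Bmp10, with 11 counts in all, is not drawn.

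Among the BMP ligands, none differed between genotypes past the threshold. Bmp2 was between 0.13 and 0.69 TPM in WT mice (median 0.34) and between 0.13 and 0.30 TPM in WWP2Mut/Mut mice (median 0.23). Thus 5 WT mice lay above every WWP2Mut/Mut mouse, 7 of 9 lay above the WWP2Mut/Mut median, and no WWP2Mut/Mut mouse reached the WT median. The 2 highest values, 0.65 and 0.69 TPM, belonged to WT mice 43-3 and 45-1, both with atrial markers above 100 TPM. The log2 fold change was -0.31 (SE 0.26, unadjusted p = 0.252) and the difference of means was not significant (0.357 ± 0.197 against 0.223 ± 0.0534 TPM, SD, exact permutation p = 0.0653, two-sided). Without the 5 atrial-marker mice the log2 fold change of Bmp2 was 0.05 (SE 0.30).

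Bmp4 spanned 1.78 to 3.77 TPM in WT mice (median 2.99) and 1.86 to 3.28 TPM in WWP2Mut/Mut mice (median 2.77). The genotypes covered nearly the same range, with 3 WWP2Mut/Mut mice above the WT median. Its log2 fold change was -0.03 (SE 0.22) and the exact permutation p of its mean TPM was 0.278. Unlike Bmp2, it was lowest in WT mouse 45-1, the mouse richest in atrial markers. Bmp6 spanned 3.47 to 7.36 TPM in WT mice (median 4.57) and 2.63 to 6.93 TPM in WWP2Mut/Mut mice (median 4.91), and the log2 fold change was -0.04 (SE 0.14). WWP2Mut/Mut mice were thus both the lowest and, by median, the higher group, with the ranges overlapping almost fully. The Bmp6 locus overlaps Txndc5 on the opposite strand, which carried 30191 counts over all mice against 8654 for Bmp6. The library kit marks strand, and the strand setting of the counting is not given in the sources used here.

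Bmp10 had 11 counts in all 18 libraries, with none in 13 mice and at most 5, in WT mouse 39-1. WT mice held 6 of these counts in 2 mice and WWP2Mut/Mut mice 5 counts in 3 mice. A library with 0 counts allows a level of up to 3 counts, or 0.0801 to 0.122 CPM (counts scaled to the library total), a limit that covers counting error only. Of the 5 mice with over 100 TPM of atrial markers, 3 had 0 counts of this atrial ligand. The log2 fold change of 0.91 (SE 1.15, unadjusted p = 0.438) depended on the fit, from -0.68 to 2.84 over 13 other settings. The upper end, with gene body coverage as a covariate, had an unadjusted p of 0.0191 and an edgeR FDR of 0.761, and 11 counts do not settle a direction.

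Gdf15 (ENSMUSG00000038508, chr8:70629393-70632456 on the minus strand of GRCm38) had the lowest exact permutation p of the 10 genes in TPM. WT mice spanned 0.86 to 2.66 TPM (median 1.16) and WWP2Mut/Mut mice 0.51 to 1.43 TPM (median 0.87). Of the WT mice, 4 lay above every WWP2Mut/Mut mouse, and 4 WWP2Mut/Mut mice lay below every WT mouse. The means were 1.5 ± 0.677 and 0.848 ± 0.272 TPM (SD, n = 9 each), a ratio of 0.565 (exact permutation p = 0.0133, two-sided, 1 of 11 such tests). It was lower in WWP2Mut/Mut mice in 4 of 4 lanes, with lane means of 0.90 against 0.56, 1.76 against 0.89, 2.03 against 1.04 and 1.38 against 0.885 TPM. On the counts, which ran from 24 to 134 per mouse, the log2 fold change was -0.55 (SE 0.21, unadjusted p = 0.0174), and with Benjamini-Hochberg adjustment in edgeR the FDR was 1.

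Atrial markers moved with Gdf15. All 5 mice with over 100 TPM of these markers had more Gdf15 than the median of their own genotype, and WT mice 45-1 and 43-3 were the highest of all, at 2.66 and 2.39 TPM. Over the whole list, 0 of 5 atrial markers differed at an unadjusted p below 0.05, summed levels spanned 7.07 to 656 TPM in WT and 8.45 to 424 TPM in WWP2Mut/Mut mice, and Sln was listed at 0 in some mice. Among the other 13 mice Gdf15 averaged 1.13 ± 0.370 TPM in 6 WT and 0.757 ± 0.179 TPM in 7 WWP2Mut/Mut mice (exact permutation p = 0.0198, two-sided), while edgeR gave a log2 fold change of -0.35 (SE 0.27, unadjusted p = 0.214). Without WT mouse 45-1 alone it was -0.36 (unadjusted p = 0.0996). With summed liver markers as a further covariate, added after seeing the data, it was -0.32 (SE 0.25, unadjusted p = 0.211). Liver markers at their highest, 311 TPM, were also found in WT mouse 45-1, and 3 of 7 (Apoa1, Serpina1c and Fgb) were at 0 in some mice. With summed atrial markers as a covariate over all 18 mice it was -0.49 (SE 0.19, unadjusted p = 0.0203). The part of liver RNA in the Gdf15 difference was not tested beyond these fits.

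**Figure D3:**
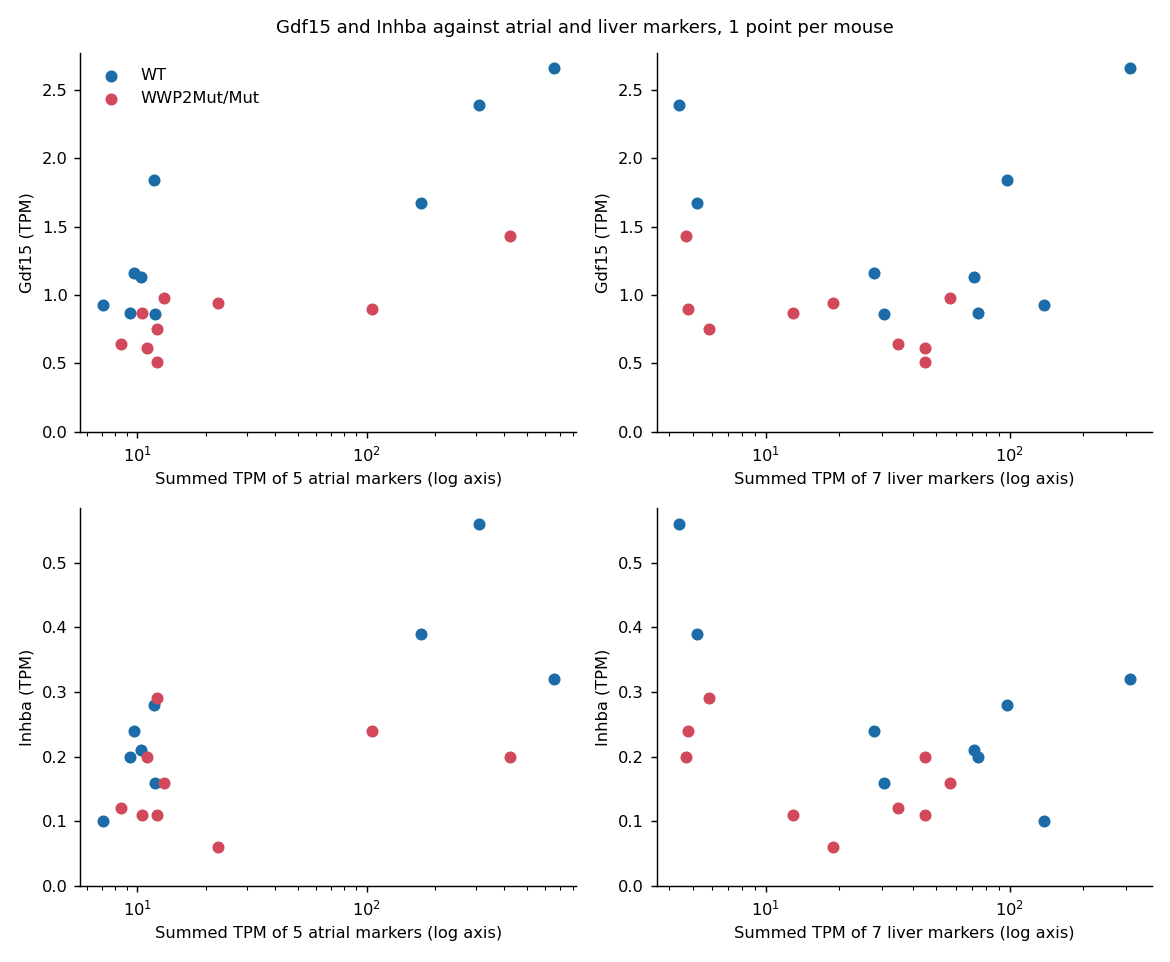
Gdf15 (top) and Inhba (bottom) in TPM against the summed TPM of 5 atrial markers (left) and 7 liver markers (right), both on log axes, 1 point per mouse, WT in blue and WWP2Mut/Mut in red. The 5 points right of 100 TPM of atrial markers include the 2 highest Gdf15 values, 2.66 and 2.39 TPM.

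Stress response genes were listed for comparison, most of them of the integrated stress response, which also controls Gdf15 in other settings. Of 13 such genes none passed an FDR of 0.05, and 1 was lower in WWP2Mut/Mut mice at an unadjusted p below 0.05, beside 3.66% of all genes in either direction. This was Phgdh, the first enzyme of serine synthesis, with 1.02 ± 0.199 TPM in WT and 0.726 ± 0.154 TPM in WWP2Mut/Mut mice (log2 fold change -0.40, SE 0.17, unadjusted p = 0.0263). Their median log2 fold change was -0.0030, beside -0.01 over all genes. Summed over the list, which Atf4 led at 50.9 TPM, the level was 149 ± 16.9 TPM in WT and 132 ± 16.6 TPM in WWP2Mut/Mut mice (exact permutation p = 0.0454, two-sided, or 0.138 after Benjamini-Hochberg adjustment over 11 lists).

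Inhba (ENSMUSG00000041324, chr13:16011851-16031621 on the plus strand of GRCm38) had the lowest unadjusted edgeR p of the 10 genes. Its counts ran from 27 to 107 in WT mice (median 72) and from 20 to 60 in WWP2Mut/Mut mice (median 41). By counts, 6 WT mice lay above every WWP2Mut/Mut mouse, and no WWP2Mut/Mut mouse reached the WT median. In TPM the spread was wider, with 0.10 to 0.56 in WT (median 0.24) and 0.06 to 0.29 in WWP2Mut/Mut mice (median 0.16), and the groups overlapped more. The log2 fold change was -0.76 (SE 0.24, unadjusted p = 0.00488), the edgeR FDR was 0.928, and mean TPM was 0.273 ± 0.138 against 0.166 ± 0.0732 (exact permutation p = 0.0511, two-sided). On CPM scaled by TMM, a choice made after seeing the data, the exact permutation p was 0.00469. In 3 of 4 lanes Inhba was lower in WWP2Mut/Mut mice, and in the first lane the means were 0.150 and 0.155 TPM.

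Leaving out each mouse in turn kept Inhba between -0.91 and -0.57 with an unadjusted p below 0.05 in 18 of 18 fits, and Gdf15 in 17 of 18. Without the 5 atrial-marker mice, Inhba was at -0.54 (SE 0.29, unadjusted p = 0.0857), and its mean TPM was 0.198 ± 0.0627 in WT and 0.150 ± 0.0757 in WWP2Mut/Mut mice (exact permutation p = 0.241). With summed atrial markers as a covariate it was -0.74 (SE 0.24, unadjusted p = 0.00604), with summed liver markers -0.88 (SE 0.28), and with summed activated fibroblast markers -0.65 (SE 0.24). Of 7 activated fibroblast markers 3 were lower in WWP2Mut/Mut mice at an unadjusted p below 0.05, none was at 0, and their sum spanned 81.4 to 208 TPM in WT and 74.0 to 164 TPM in WWP2Mut/Mut mice. Of 7 general fibroblast markers 6 had a negative log2 fold change and 0 an unadjusted p below 0.05, and none was at 0. Their sum spanned 187 to 520 TPM in WT (354 ± 115) and 218 to 410 TPM in WWP2Mut/Mut mice (299 ± 63.5, exact permutation p = 0.230), and was highest in WT mouse 43-3. The part of fibroblasts in the Inhba difference was not tested beyond the activated list.

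Inhbb was spread widely in WT mice, from 0.15 to 0.84 TPM (median 0.70), and less so in WWP2Mut/Mut mice, from 0.23 to 0.77 TPM (median 0.36). WT mice formed both the top and the bottom of the order: 3 lay above every WWP2Mut/Mut mouse, while the 2 lowest of all were WT mice 16-1 and 94-2 at 0.15 and 0.19 TPM. The log2 fold change was -0.14 (SE 0.29, unadjusted p = 0.638), and the exact permutation p of mean TPM was 0.190.

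The promoters of Gdf15 and Inhba are shown because these were the genes at an unadjusted p below 0.05. They are the 250 bases before the RefSeq start on build GRCm38.p6, at chr8:70632457-70632706 on the minus strand and chr13:16011601-16011850 on the plus strand, printed 5′ to 3′. RefSeq lists a further Gdf15 start within the gene, whose window is not printed. Capitals mark the SMAD box (CAGAC or its reverse complement GTCTG) and the TATA box (TATAAA or TTTATA).
Gdf15: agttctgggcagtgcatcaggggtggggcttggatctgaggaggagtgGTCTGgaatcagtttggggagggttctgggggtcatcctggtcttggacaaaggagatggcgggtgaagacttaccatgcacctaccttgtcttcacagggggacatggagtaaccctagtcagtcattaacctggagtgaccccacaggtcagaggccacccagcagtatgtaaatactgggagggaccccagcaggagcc
Inhba: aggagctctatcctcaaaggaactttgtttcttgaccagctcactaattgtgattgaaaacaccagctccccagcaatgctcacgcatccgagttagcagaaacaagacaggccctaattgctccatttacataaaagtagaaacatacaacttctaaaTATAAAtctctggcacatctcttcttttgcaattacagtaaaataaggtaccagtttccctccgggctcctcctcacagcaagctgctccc
In the Gdf15 window shown the SMAD box began 202 bases before the start, and no TATA box was present. The window of the further Gdf15 start, at chr8:70632096-70632345, held its own SMAD box beginning 116 bases before that start and no TATA box. Inhba held TATAAA beginning 91 bases before the start and no SMAD box. A SMAD box was present in 42.2% and a TATA box in 12.4% of 32817 such windows over the genome. Windows were found for 8 of the 10 genes, and besides Gdf15 the SMAD box occurred in Bmp6 and Fstl3. Neither the cAMP response element TGACGTCA, in 1.55% of windows, nor the AP-1 site TGACTCA, in 4.46% on either strand, occurred in any of the 8. These matches describe letters and not binding.

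The follistatins showed no genotype difference past the threshold. Fst, the classical activin antagonist, had only 5 to 29 counts per mouse, with 0.06 to 0.32 TPM in WT (median 0.11) and 0.05 to 0.13 TPM in WWP2Mut/Mut mice (median 0.10). The medians nearly coincided, and 4 WT mice lay above every WWP2Mut/Mut mouse. Its log2 fold change was -0.42 (SE 0.37, unadjusted p = 0.266), and without the 5 atrial-marker mice it was 0.02 (SE 0.44). Fstl1 spanned 12.7 to 40.0 TPM in WT (median 26.8) and 17.6 to 36.2 TPM in WWP2Mut/Mut mice (median 22.8), with the ranges nested. Its log2 fold change was 0.01 (SE 0.16) at 1949 to 5764 counts per mouse, the deepest count of the 10 genes. Fstl3 spanned 2.30 to 5.76 TPM in WT (median 3.30) and 2.52 to 4.53 TPM in WWP2Mut/Mut mice (median 3.13). It was lower in mean TPM in 4 of 4 lanes, most in lane 3 at 5.01 against 3.88 TPM with 2 mice per genotype, and its log2 fold change was -0.04 (SE 0.14, unadjusted p = 0.788). WT mouse 43-3, an atrial-marker mouse, held the highest level of Inhba, Fstl1 and Fstl3 alike.

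The balance of activin subunits to activin antagonists was taken as the TPM of Inhba and Inhbb over that of Fst and Fstl3. It lay between 0.0767 and 0.350 in WT mice (median 0.247) and between 0.106 and 0.295 in WWP2Mut/Mut mice (median 0.170). Subunit transcripts were thus fewer than antagonist transcripts in every mouse. The mean ratio was 0.227 ± 0.0926 in WT and 0.188 ± 0.0685 in WWP2Mut/Mut mice, a difference within the spread between mice (exact permutation p = 0.316, two-sided).

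The other genes of the pathway also gave no call. Of 78 genes for further ligands, receptors, co-receptors, SMADs, secreted antagonists, processing proteases and BMP targets, 75 were tested, 0 passed an FDR of 0.05 in edgeR, DESeq2 or limma, and 4 (5.33%) stood at an unadjusted p below 0.05, beside 3.66% of all genes. Of these 3 were lower and 1 higher in WWP2Mut/Mut mice. Bambi, a pseudoreceptor that dampens TGF-beta and BMP signalling and is itself a BMP target, was at 2.78 to 5.59 TPM in WT (median 3.74) and at 2.02 to 4.07 TPM in WWP2Mut/Mut mice (median 2.82). Its log2 fold change was -0.32 (SE 0.13, unadjusted p = 0.0282). The oocyte ligand Gdf9 was at 0.349 ± 0.0997 and 0.230 ± 0.132 TPM (log2 fold change -0.64, SE 0.28). Lefty2 had 4 counts in all, and Gdf3 41 counts, with 0.0144 and 0.0367 TPM on average.

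By role, the most abundant genes of the pathway were Inha (2.14 TPM) among other ligands, Acvrl1 (13.9 TPM) among type I receptors and Bmpr2 (2.71 TPM) among type II receptors. Hfe2, the BMP co-receptor hemojuvelin that striated muscle also expresses, reached 94.3 TPM. The common mediator Smad4 led the SMADs at 8.67 TPM, Twsg1 the secreted antagonists at 11.9 TPM, Furin the proteases at 14.1 TPM and Id1 the BMP targets at 47.7 TPM. Negative log2 fold changes were found for 13 of 22 other ligands, 5 of 6 type I receptors, 2 of 4 type II receptors, 5 of 7 co-receptors, 7 of 8 SMADs, 12 of 15 antagonists, 6 of 7 proteases and 6 of 10 targets. Over the 75 genes, 52 were negative, where 51.9% of all genes tested were, with a median of -0.11 against -0.01 over all genes.

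Several of the 10 genes rose and fell together from mouse to mouse. Over 45 pairs, with the genotype mean removed from log2(TPM + 1), 10 correlations passed an adjusted permutation p of 0.05 (n = 18), 9 positive and 1 negative. By Spearman's rho 6 of the 10 also passed. In WT mice r was 0.71 to 0.81 for Bmp2 with Inhba, Bmp2 with Fst, Gdf15 with Inhba and Gdf15 with Inhbb. The same pairs stood at 0.13 to 0.27 in WWP2Mut/Mut mice. For the other passing pairs r was at least 0.458 in size in both genotypes. Bmp2 and Gdf15 had the highest r, at 0.82 (adjusted p = 9.00e-04) with rho 0.75 (adjusted p = 0.0224, both by permutation), and r was 0.64 without the 2 mice farthest from the median. Bmp2 and Inhbb followed at r = 0.75 (adjusted p = 0.00967) and rho = 0.70 (adjusted p = 0.0224), and without the 2 mice r was 0.77. Bmp4 ran against Inhbb, at r = -0.64 (adjusted p = 0.0232) and rho = -0.70 (adjusted p = 0.0224), and at -0.63 without the 2 mice. Inhba went with Fstl1 at r = 0.72 (adjusted p = 0.0153), though with rho = 0.55 (adjusted p = 0.0803) and r = 0.47 without the 2 mice. Each was also set beside the summed level of the 11 marker lists, and 7 of these 22 relations passed the adjusted threshold by r, 3 for Inhba and 4 for Fstl1. Inhba went with fibroblast markers at r = 0.73 (adjusted permutation p = 0.00425, rho = 0.65 at adjusted p = 0.0302), with atrial markers at r = 0.64 (adjusted permutation p = 0.0164, rho = 0.63 at adjusted p = 0.0335) and against liver markers at r = -0.59 (adjusted permutation p = 0.0337, rho = -0.45 at adjusted p = 0.179). Without the 2 mice farthest from each median these were 0.72, 0.76 and -0.29. Over the 13 mice left without the atrial-marker mice, r of Inhba with summed atrial markers was -0.04. The positive relation with atrial markers was thus not seen without the atrial-marker mice. Fstl1 went most closely with immune markers, at r = 0.87 (adjusted permutation p = 4.40e-04, rho = 0.92 at adjusted p = 2.20e-04), then with fibroblast markers at r = 0.79 (adjusted permutation p = 9.90e-04, rho = 0.73 at adjusted p = 0.00913), with smooth muscle and pericyte markers at r = 0.64 (adjusted permutation p = 0.0164, rho = 0.59 at adjusted p = 0.0399) and against liver markers at r = -0.58 (adjusted permutation p = 0.0349, rho = -0.60 at adjusted p = 0.0399). Without the 2 mice these were 0.83, 0.70, 0.45 and -0.45. The activated fibroblast list passed with neither gene.

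Some of these relations were weaker without the 5 atrial-marker mice. Over the 13 other mice, 10 of the 10 kept their sign and 1 passed the adjusted threshold. In 5 of the 10, r fell to between 0.26 and 0.40. Bmp2 and Inhbb remained at r = 0.87 (adjusted permutation p = 0.00720), with rho = 0.82, whereas Bmp2 and Gdf15 stood at r = 0.40 (adjusted permutation p = 0.535), with rho = 0.33. The other 4 of these 5 were Bmp2 with Inhba (0.67 to 0.28), Bmp2 with Fst (0.68 to 0.26), Gdf15 with Inhba (0.64 to 0.30) and Inhba with Fstl3 (0.63 to 0.31). Inhba and Fstl1 stood at r = 0.71 (adjusted p = 0.151) with rho = 0.65, and Bmp4 and Inhbb at r = -0.60 (adjusted p = 0.219) with rho = -0.59, both p values by permutation. On TMM-scaled log2 CPM, 3 pairs passed, namely Bmp4 with Inhbb (r = -0.76), Bmp2 with Inhbb (r = 0.73) and Bmp2 with Bmp4 (r = -0.71). With lane and RNA concentration removed as well, 11 pairs passed, 8 positive and 3 negative. Of the 10 pairs, Gdf15 with Inhba (adjusted permutation p = 0.0615), Gdf15 with Inhbb (0.0602) and Inhba with Fstl3 (0.188) did not pass there. Bmp2 with Inhbb and Bmp4 with Inhbb passed by r on each of the 3 scales over all 18 mice. By rho on TMM-scaled log2 CPM, Bmp4 with Inhbb passed (adjusted permutation p = 0.00315) and Bmp2 with Inhbb did not (adjusted permutation p = 0.207).

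**Figure D4:**
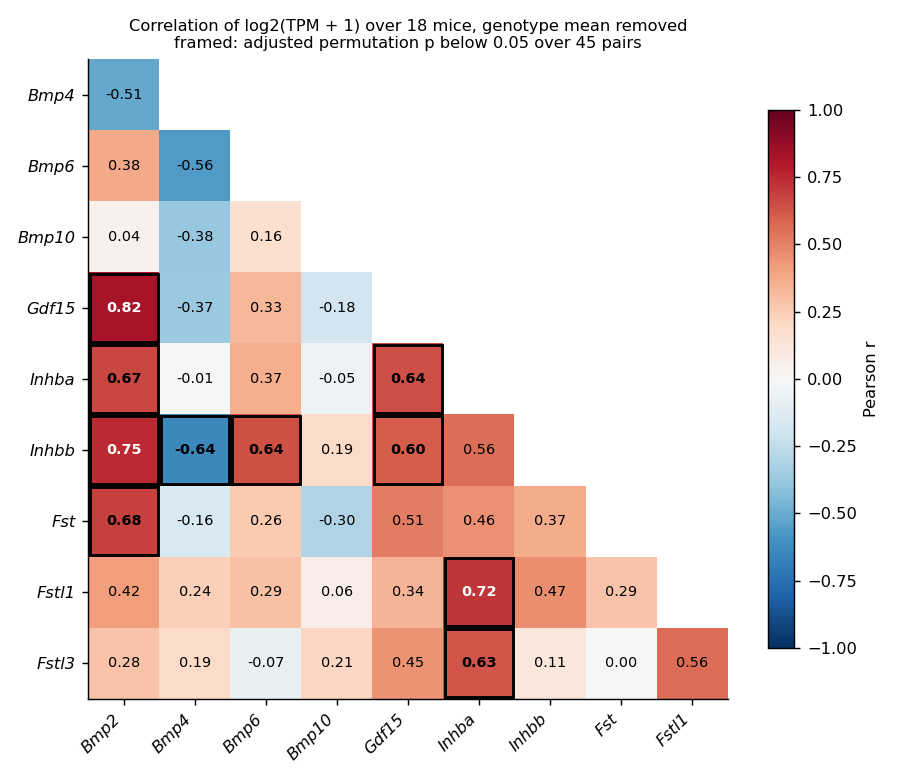
Pearson r between the 10 genes over 18 mice, from log2(TPM + 1) with the genotype mean removed, in 45 cells from blue (-1) to red (1); framed cells have an adjusted permutation p below 0.05. Bmp2 takes part in 4 of the 10 framed pairs, Inhba in 4 and Inhbb in 4, and the cell of Bmp4 and Inhbb is the 1 framed negative.

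Relations with RNA measures were looked for as well. Of 20 relations, 3 passed the adjusted threshold, all with gene body coverage, a fraction in the deposited sample table, and 9 of 10 genes had a negative r with it. Inhba fell with it at r = -0.72 (adjusted permutation p = 0.0130) and rho = -0.75 (adjusted p = 0.00790), and at r = -0.65 without the 2 mice farthest from the median. Inhbb gave r = -0.68 (adjusted permutation p = 0.0145) and rho = -0.73 (adjusted p = 0.00790), and r = -0.55 without those 2 mice. Fstl1 gave r = -0.69 (adjusted permutation p = 0.0133), rho = -0.59 (adjusted p = 0.0753) and r = -0.53 without them. Of the 5 atrial-marker mice 4, namely 43-3, 84-2, 22-3 and 8-2, lay at the low end of coverage, between 0.0288 and 0.0322. Over the 13 other mice r was -0.71 for Inhba (adjusted permutation p = 0.0286) with rho = -0.74 (adjusted p = 0.0192), and -0.62 without the 2 mice farthest from the median. Inhbb there gave r = -0.70 (adjusted permutation p = 0.0286) with rho = -0.73 (adjusted p = 0.0192) and r = -0.59 without the 2 mice, and Fstl1 gave r = -0.63 (adjusted permutation p = 0.0483) with rho = -0.59 (adjusted p = 0.0750) and r = -0.88. Bmp6 passed as well in these 13 mice, at r = -0.81 (adjusted permutation p = 0.00700) and rho = -0.85 (adjusted p = 0.00510), with r = -0.78 without the 2 mice. A lower coverage fraction thus went with a higher TPM of both activin subunits, with and without the atrial-marker mice. On TMM-scaled log2 CPM, r was -0.53 for Inhba, -0.58 for Inhbb and -0.33 for Fstl1. Coverage itself did not separate the genotypes (0.0387 ± 0.00861 in WT and 0.0401 ± 0.00825 in WWP2Mut/Mut mice, exact permutation p = 0.720), and with coverage as a covariate the log2 fold change of Inhba was -0.71 (SE 0.22). RNA concentration, by contrast, was higher in WWP2Mut/Mut mice (175 ± 73.6 against 110 ± 51.5 ng/ul, exact permutation p = 0.0422) and passed with none of the 10 genes. Within WT and WWP2Mut/Mut mice r had opposite signs for Bmp4 (-0.50 and 0.39), Inhba (-0.58 and 0.74), Fstl1 (-0.59 and 0.78) and Fstl3 (-0.69 and 0.44). For the other genes both signs were the same, and no test was made within genotypes. WT mouse 43-3, part of these WT values, is listed at 1.68 ng/ul. Without it the WT mean was 124 ± 33.8 ng/ul (n = 8), the difference was 51.4 in place of 64.9 ng/ul (exact permutation p = 0.0872), and again none of the 10 genes passed.

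**Figure D5:**
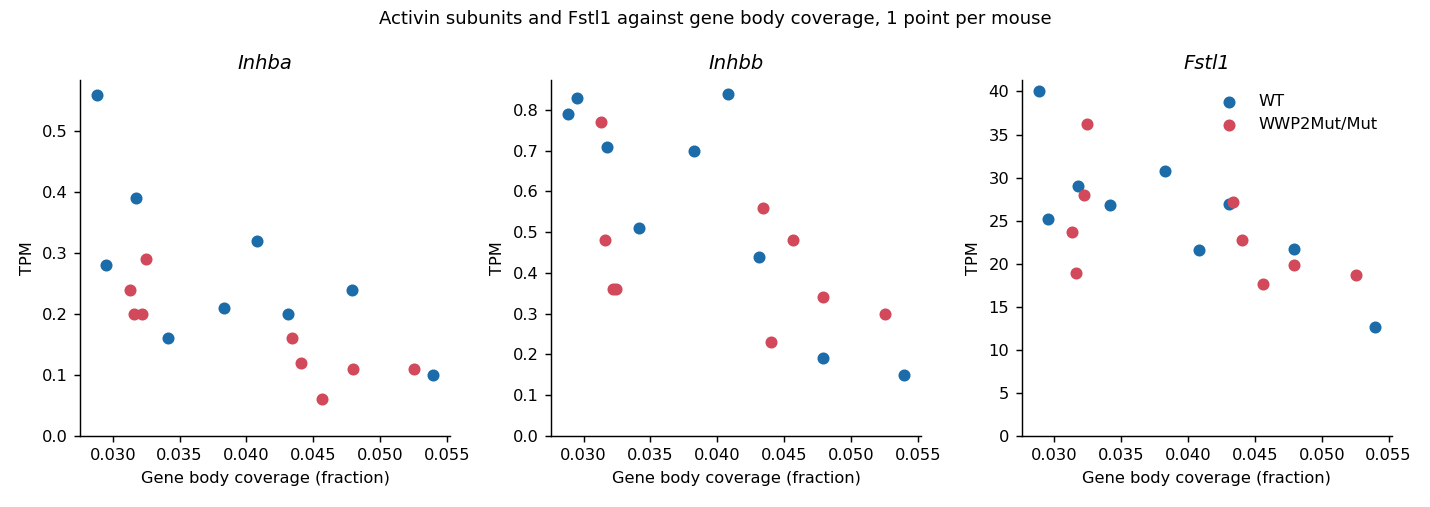
Inhba, Inhbb and Fstl1 in TPM against the gene body coverage fraction, 1 point per mouse, WT in blue and WWP2Mut/Mut in red. Points of both genotypes run downward from a coverage of 0.0288 at the left to 0.0540 at the right.

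The genes whose levels followed each member most closely were sought among 11336 genes with a mean of at least 1 TPM, as a description over 18 mice from shared libraries. For Gdf15 they were Mtg1 (r = 0.87), which encodes a mitochondrial ribosome assembly GTPase, the secreted glutathione peroxidase gene Gpx3 (r = 0.85) and Slc25a47 (r = 0.84). The atrial markers Mybphl, Sln and Myl7 stood at ranks 6, 8 and 14 for Gdf15, with r of 0.82, 0.82 and 0.79, and at 0.01, 0.19 and 0.08 over the 13 mice without the 5 atrial-marker mice. Over those 13 mice r was 0.57 for Mtg1, 0.50 for Gpx3 and 0.72 for Slc25a47. For Inhba they were Frmd6, Dpysl3 (both r = 0.94) and the vitamin C transporter gene Slc23a2 (r = 0.93). For Inhbb they were Tmem171 and Leo1 (both r = 0.95) and the Polycomb gene Phc2 (r = 0.94). Fstl1 was closest to the collagen gene Col8a1 (r = 0.92), Emp1 (r = 0.92) and Tcf21 (r = 0.91), a transcription factor that marks cardiac fibroblasts. Bmp6 was closest to Lipe, the hormone-sensitive lipase gene (r = 0.88), to the inhibitory SMAD gene Smad7 (r = 0.88) and to Akap9 (r = 0.86). Without the atrial-marker mice r of these named genes lay between 0.87 and 0.90 for Inhba, 0.95 and 0.96 for Inhbb, 0.89 and 0.94 for Fstl1, and 0.77 and 0.92 for Bmp6.

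Among the other genes, Fst was closest to Ltbp2, a latent TGF-beta binding protein family gene (r = 0.85), Cep57 (r = 0.84) and Olfm1 (r = 0.83), at 5 to 29 counts of its own. Bmp2 was closest to Nob1 (r = 0.90), Pdcd7 and the kinase gene Tec (both r = 0.89). Fstl3 was closest to the Fc receptor gene Fcgr1 (r = 0.82) and the predicted genes Gm14410 and Gm18666 (both r = 0.80). Bmp4 was closest to Pdlim2, Wfdc17 (both r = 0.74) and Rgs19 (r = 0.73). Bmp10, at 11 counts, was closest to Nudt17 (r = 0.79), Lrrc51 (r = 0.73) and Gm27761 (r = 0.67). Without the atrial-marker mice these lay between 0.53 and 0.84 for Fst, 0.85 and 0.94 for Bmp2, 0.56 and 0.72 for Fstl3, 0.61 and 0.69 for Bmp4, and 0.72 and 0.86 for Bmp10.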

How the data were processed

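RNA-seq reads of 18 left ventricle samples, 9 per genotype, were aligned by the authors to m38 with STAR 2.5.2b and quantified with RSEM 1.2.31 over Ensembl 89 genes, with rRNA and mitochondrial genes removed. The authors deposited the expected count and the TPM of each gene, and a sample table with lane, RNA concentration and a gene body coverage fraction that is not defined further. Ensembl identifiers were matched to symbols with GENCODE M21 (51242 of 51435). Expected counts were rounded and tested with edgeR 4.0.16 in R 4.3.3 (TMM, glmQLFit, glmQLFTest) over the 24804 genes whose counts summed to more than 1, adjusting for lane and for RNA concentration (centred), as the study's own model does. P values were adjusted by the Benjamini-Hochberg method over all genes. Log2 fold changes are WWP2Mut/Mut over WT.

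DESeq2 1.42.0, RLE size factors, other filters and covariates, and limma 3.58.1 on log2(TPM + 1) were alternatives. Single values per mouse were compared by two-sided exact permutation over 48620 divisions into 9 and 9 (smallest p 4.11e-05) with scipy 1.17.1. Correlations used 100000 permutations. TPM sums ran from 671770 to 826381 per mouse, and rescaling them was an alternative. The edgeR step was tested on simulated data over 24049 genes. The genes and lists were chosen with earlier results of these data known, so no genotype p of a single gene was adjusted over the 10 genes or a list alone. Genes named beyond the 10 by rule are Wwp2, the most abundant gene of each pathway list, pathway genes at an unadjusted p below 0.05 and the 3 genes most correlated with each member. Marker genes are named from their lists, and Txndc5 was named after its counts were seen. The methods give 9 mice per genotype and the results text 8; all 18 were used. WT mouse 43-3 is listed at 1.68 ng/ul RNA, which was used as it stands. Promoters came from RefSeq on GRCm38.p6.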

Additional observations from a re-analysis of the deposited data

Results flagged for a closer look

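In WT mice, Bmp10 of mouse 39-1 stood apart from the other 8, at 0.03 TPM against 0.01 TPM in the next mouse. The gap to the next value, divided by the range of the 9 mice, was 0.667, above Dixon's critical value of 0.493. It rests on 5 counts. This was the 1 mark among 22 groups tested, a number that chance, at about 1 in 20 groups, would give.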

How the results depend on the processing

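No alternative brought any of the 10 genes past an FDR of 0.05. Inhba and Gdf15 kept a negative log2 fold change in every alternative, and the largest unadjusted p was 0.0857 for Inhba, over 14 settings, and 0.214 for Gdf15, over 15. Alternatives added after seeing the data were the liver, atrial and activated fibroblast covariates, RNA concentration under 10 ng/ul set to the mean, the fits and correlations, those with gene body coverage included, without the 5 atrial-marker mice, correlations with marker lists, permutation on TMM-scaled CPM, and RNA concentration without WT mouse 43-3. Sign changes were seen for Bmp10 (0.91 as reported), Fst (-0.42), Bmp2 (-0.31), Inhbb (-0.14) and 4 genes reported between -0.04 and 0.01. Without the atrial-marker mice, log2 fold changes were 0.047 for Bmp2, 0.014 for Bmp6, -0.34 for Bmp10, 0.022 for Inhbb, 0.020 for Fst and -0.091 for Fstl1. With lane only they were 0.029 for Bmp4, 0.10 for Bmp6 and -0.078 for Bmp10, and with no covariates 0.11 for Bmp6 and -0.11 for Bmp10. With RNA concentration under 10 set to the mean they were 0.012 for Bmp4, 0.0049 for Bmp6 and -0.010 for Fstl1. With liver markers they were 0.037 for Bmp6, -0.68 for Bmp10 and -0.13 for Fstl1. Bmp10 was -0.011 with activated fibroblast markers, and Inhbb 0.028 with gene body coverage. By limma, Fstl1 was -0.18 on log2(TPM + 1), the same with a mean TPM of at least 1, and -0.18 on log2(TPM + 0.1). By limma the median of all genes was -0.028 on log2(TPM + 1) and -0.090 on log2(TPM + 0.1). With a mean TPM of at least 1 it was -0.14, against -0.01 in edgeR. Differences of mean TPM reversed for Bmp6 on rescaled TPM (0.0195) and without the atrial-marker mice (0.095). On TMM-scaled CPM the differences were 1.2 for Bmp6 and 4.51 for Fstl1.

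Leaving out each mouse in turn moved Bmp4 from -0.18 to 0.054, Bmp6 from -0.17 to 0.058, Fstl1 from -0.12 to 0.094 and Fstl3 from -0.13 to 0.059. The genes called over all genes then numbered 1 to 2, and the members at an unadjusted p below 0.05 numbered 1 to 2. DESeq2 called 4 genes, none of them a member, and without the atrial-marker mice edgeR called 0, with 511 at an unadjusted p below 0.05. Negative members numbered 5 under limma with a mean TPM of at least 1, where only 5 members were tested. Members at an unadjusted p below 0.05, 2 as reported, numbered 3 with gene body coverage, where Bmp10 was at 2.84 (SE 0.97), 1 under that filter, 1 with liver markers and 0 without the atrial-marker mice. On TMM log2 CPM, 3 of 45 pairs passed in place of 10. The cause of these shifts was not tested. No paired analysis was possible because the groups compared share no replicate number.

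Depth limits Bmp10, Fst, Inhba (20 to 107 counts per mouse), Bmp2 (19 to 97) and Gdf15 (24 to 134). TPM is given to 2 decimals, which leaves few distinct values at the lowest levels. The 3 highest values of Bmp2 and of Inhba, and the 2 highest of Gdf15, were in atrial-marker WT mice, and 9 mice per genotype recovered 17.9% of genes changed 1.5-fold in simulation.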

Other observations

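Cell type and stress markers of the same ventricles were summed per mouse, in 11 lists. Endocardial markers (Npr3, Cytl1, Tmem108 and Plvap) summed to 17.4 ± 6.31 TPM in WT and 12.2 ± 2.69 TPM in WWP2Mut/Mut mice (SD, n = 9 each, exact permutation p = 0.0356, 0.138 after Benjamini-Hochberg adjustment over the lists), with 8 of 9 WT mice above the WWP2Mut/Mut median and 4 of 4 genes negative in edgeR. Cardiomyocyte markers summed to 46138 ± 2803 and 42639 ± 3675 TPM (exact permutation p = 0.0384, adjusted 0.138), with 8 of 9 WT mice above the WWP2Mut/Mut median, although 3 of 7 log2 fold changes on the counts were negative. Neither passed the adjusted threshold, and endothelial markers summed to 887 ± 142 and 871 ± 128 TPM (exact permutation p = 0.813, adjusted 0.813).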
